A study of Mus musculus with 12 samples.

Results

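Microdissected CA1 of induced mice was compared with whole hippocampus of induced mice at similar times after induction, which used 5 of the 12 arrays of the series. The samples were VP16-CREB (VC) mice, which carry a transgene for CREB fused to a viral activation domain, so that this transcription factor is active without a signal. The transgene is silent while the mice receive doxycycline (dox) and is expressed once dox is withdrawn. The CA1 group held 2 arrays, both from VC mice 3 weeks off dox, and the late hippocampal group held 3 arrays, 2 from VC mice 2 weeks off dox and 1 from VC mice 5 weeks off dox. All 5 samples thus came from mice that carried and expressed the transgene, and no control without it is in this comparison. Arrays were assigned to these groups by their titles. Each difference was then checked in mice without the transgene, with 1 array of wild-type CA1 against 2 arrays of wild-type hippocampus. Per the series' design text, hippocampi of 6 to 10 mice of matched genotype and induction time were pooled for each sample, and p-values therefore measure the spread between pools. The sources used here do not name the promoter that drives the transgene or the strain, age and sex of the mice. The question, as the design text puts it in substance, was whether whole hippocampus underestimates changes that are confined to a subregion.

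The hippocampus is built of the dentate gyrus with its granule cells, the hilus with its mossy cells, and the pyramidal cell fields CA3, CA2 and CA1. CA1 receives its main input from CA3 and forms the chief output of the circuit, and long-lasting plasticity at this synapse depends on CREB and its target genes. Many of these targets are immediate early genes, which encode short-lived transcription factors and signalling proteins that respond to activity or to stress of the tissue. Choroid plexus, meninges, thalamus and cortex border the hippocampus and can be carried along in a dissection.

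Expression was read on Affymetrix MG-U74Av2 arrays, on which a probe set reports the signal of a gene. Levels below are the log2 of the signal after scaling all arrays to 1 trimmed mean, set at 1000, so that a step of 1 is a doubling. Values under 65.7 (6.04 on the log2 scale) were raised to that floor. Of 12422 probe sets, 7069 lay above their own array's median on at least 2 of the 12 arrays and were tested. The deposited scale differed between arrays. Its trimmed mean was 500.3 to 500.4 on the 3 CA1 arrays and on hippocampus wild type 1, and 3002 on the other 8 arrays. Deposited scale and region cannot be told apart in the induced comparison, while CA1 wild type and hippocampus wild type 1 share the lower scale. Over the tested probe sets the SD of log2 levels was 1.57 to 1.70 on the CA1 arrays and 1.44 to 1.54 on the 9 hippocampal arrays. Levels on the 2 CA1 VC arrays correlated at 0.916 across probe sets, those on the 3 late hippocampal arrays at 0.943 to 0.964, and those between the groups at 0.883 to 0.921.

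In induced mice, 599 of 7069 tested probe sets (8.47%) differed between CA1 and late hippocampus at an adjusted p under 0.05 (limma, Benjamini-Hochberg), with 137 higher in CA1 (1.94%) and 462 lower (6.54%). The probe sets with 1 gene symbol named 116 genes that were higher and 389 that were lower. Differences over 2-fold made up 82 of the 137 higher and 275 of the 462 lower ones, and occurred in 2.42% of all tested probe sets above and 6.11% below. In all 599 the groups did not overlap, which held for 15.4% of tested probe sets with CA1 higher and 27.5% with CA1 lower. The largest rises in CA1 included the cytokine feedback inhibitor Socs3, the cytokines Il1a and Tnf, the chemokines Ccl4 and Ccl2, the immediate early genes Zfp36, Fosb and Junb, the astrocyte water channel Aqp4 and the transcription factor Zbtb20. The largest falls included Ttr, a product of the choroid plexus, the NMDA receptor subunit Grin2d, the guidance molecule Sema3e and a probe set of Rpl41. The split between directions depended on the scaling. After quantile normalization 123 probe sets were higher and 169 lower, so that the share of higher calls was 42.1% in place of 22.9%. Of the calls made before it, 96 of 137 higher and 168 of 462 lower ones passed again with the same sign. The median difference over all tested probe sets was -0.115 before and -0.004 after this normalization. Before it, the median was -0.232 among the dimmest 20% and 0.024 among the brightest 20% of the probe sets, and the lower calls numbered 142 among the dimmest and 44 among the brightest.

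The counts also rested on the spread that 12 arrays can estimate. Leaving out a late hippocampal array gave 196 calls without the first 2-week array, 63 without the second and 553 without the 5-week array. Leaving out a CA1 VC array gave 387 calls without the first and 1076 without the second. With the deposited scale as a block no probe set passed, although 687 had an unadjusted p under 0.05. Wild-type hippocampus is the only group with arrays on both scales, so the block rests on that pair of arrays and carries their noise. Values with this block therefore cannot separate scale from region. The rules for naming genes picked 95 calls, not all of which are named below. Of these, 39 remained without the first 2-week array, 28 without the second and 75 without the 5-week array, all with the same sign. The filter on low values bore on the calls too. Of the 137 higher calls, 32 had no hippocampal array above its own median and met the filter through CA1 arrays alone, and of the 462 lower calls 143 had no CA1 array above its median. A probe set that enters the test in this way is one that had to differ, and its p is to be read with that limit. Among the genes named below this concerns both Socs3 probe sets, Il1a, Tnf, Ccl2, Ccl4, Ccn1, Slc4a4, Mep1b, Nap1l4, Hipk2, Myo1c, Dnajb13 and a probe set each of Aqp4 and Penk among the higher calls. Among the lower calls it concerns Ttr, Grin2d, Grm8, Lum, Ramp3, Eif2s3y and a probe set each of H2-K1 and Cx3cl1. The lower calls Spdl1, Tmbim1, Zfp277, Dmtf1, Prss30, Fstl3, Pitpnb and Dut met the filter through hippocampal arrays alone too. With a filter on the mean over all arrays, Ccl2, Nap1l4, Myo1c and Dnajb13 were not tested.

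The regional differences of induced mice recurred in direction in wild-type mice. Of the 599 called probe sets, 582 (97.2%) had the same sign in CA1 wild type against hippocampus wild type, against 5637 of all 7069 tested (79.7%). The same 582 is the count against hippocampus wild type 1 alone, which was deposited on the scale of the CA1 arrays. The wild-type difference itself passed for 55 of the 137 higher and 152 of the 462 lower probe sets, beside 383 of all tested ones (5.42%). The wild-type CA1 array lay beyond both wild-type hippocampal arrays in the same direction for 577 of the 599, beside 34.4% of all tested probe sets above and 51.7% below. For 516 of the 599, all 3 CA1 arrays lay beyond all 9 hippocampal arrays of the series, as they did above for 7.60% and below for 16.8% of all tested probe sets. Across the 7069 probe sets the induced and the wild-type differences correlated at 0.726 (Pearson), and at 0.703 with hippocampus wild type 1 alone. The pairs of groups share no array but share the region, the chip type and, in part, the deposited scale. Both differences also come from the same fit with a shared estimate of the spread for each probe set. The counts that passed in both are therefore not independent. The filter on low values bears on all these counts, since the wild-type arrays were among those it used. Of the calls, 32 higher ones met it through CA1 arrays alone and 143 lower ones through hippocampal arrays alone. For these the direction in wild-type mice was partly set by the filter, and the counts were not repeated without them.

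**Figure D1:**
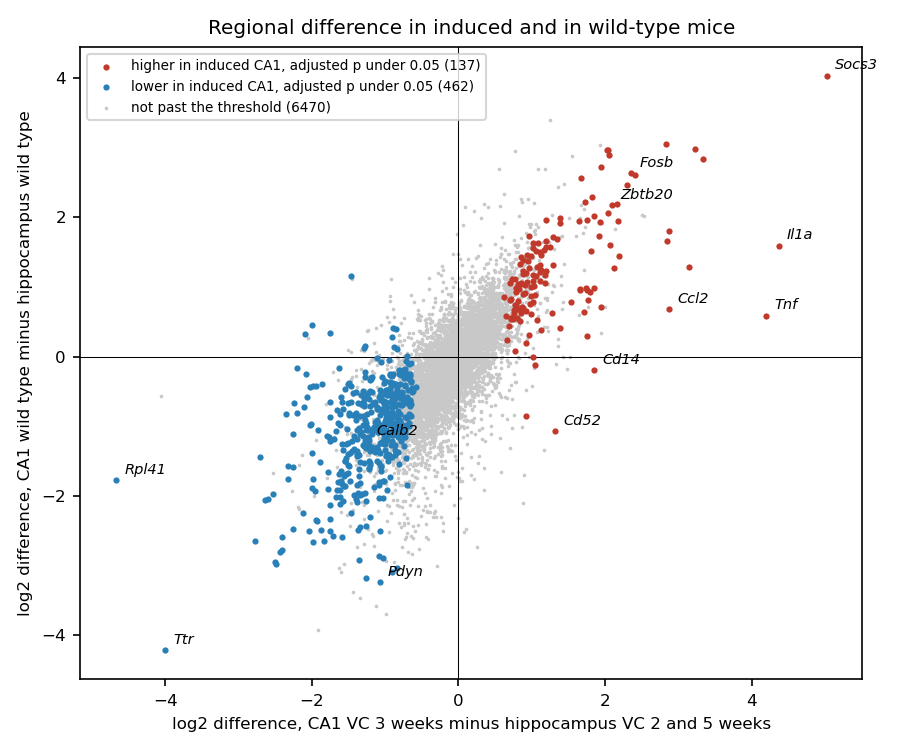
Each point is a tested probe set, with the log2 difference of CA1 VC 3 weeks minus hippocampus VC 2 and 5 weeks on the horizontal axis and of CA1 wild type minus hippocampus wild type on the vertical axis. Red points (137) were higher and blue points (462) lower in induced CA1 at an adjusted p under 0.05 (limma), grey points did not pass, and most coloured points lie in the lower left or upper right quadrant, with Cd14 and Cd52 among the exceptions.

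The difference between the induced and the wild-type regional contrast was tested in the same fit. No probe set passed (0%, limma, lowest adjusted p = 0.204), 292 had an unadjusted p under 0.05, and limma with a trended and robust prior also called 0. Without the filter on low values 156 of 12422 probe sets passed, 32 positive and 124 negative. Statements below that a gene differed in induced and not in wild-type mice therefore carry no test of their own unless a p for the difference is given. Without the first CA1 VC array this difference passed for 22 probe sets, 17 positive and 5 negative.

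Socs3, the gene with the largest rise, encodes an inhibitor of cytokine receptor signalling that is itself induced by STAT factors. Fosb encodes a partner of Jun in the AP-1 transcription factor. The sequences before their starts are shown because both genes rose in CA1 and each holds a short motif that a script searched for, printed in capitals. In Socs3 this is TTCNNNGAA, the core of a STAT site, at positions -154 to -146 from the start. In Fosb it is TGACG, the core of a cAMP response element, at positions -60 to -56. Both stretches are the 250 bases before the start on the minus strand of build GRCm38.p6, from RefSeq, at chr11:117969367-117969616 for Socs3 and chr7:19310046-19310295 for Fosb.
Socs3: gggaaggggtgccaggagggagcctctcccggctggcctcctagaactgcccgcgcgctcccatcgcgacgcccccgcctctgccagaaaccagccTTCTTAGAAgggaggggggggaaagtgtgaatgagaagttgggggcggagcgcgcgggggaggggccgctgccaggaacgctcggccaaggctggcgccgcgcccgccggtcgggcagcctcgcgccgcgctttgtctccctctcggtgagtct
Fosb: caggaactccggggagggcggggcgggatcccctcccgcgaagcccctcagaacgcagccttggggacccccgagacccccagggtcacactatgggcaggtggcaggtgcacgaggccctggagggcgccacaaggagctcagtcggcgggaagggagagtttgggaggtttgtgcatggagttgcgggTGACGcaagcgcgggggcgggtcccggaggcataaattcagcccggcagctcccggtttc
The search covered both strands of windows from 250 bases before to 50 bases after the start. Among the 12 immediate early and cytokine feedback genes that passed in the induced comparison, 11 had such a window, and Ccl2 is named only. TGACG was found in 4 of them, Atf3, Ccn1, Fosb and Junb, and in 20.8% of the 32851 windows of all genes. TTCNNNGAA was found in 2 of them, Socs3 and Zfp36, and in 8.3% of all windows. The motifs cannot overlap in sequence, and a match describes the letters of a window and not a bound site.

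Socs3 read 10.35 and 11.78 on the CA1 VC arrays and lay at the floor of 6.04 on all 3 late hippocampal arrays. The 3 CA1 arrays were high and the 9 hippocampal arrays of the series were all at the floor, with wild-type CA1 at 10.07 and both wild-type hippocampi at 6.04. The induced difference was at least 32.6-fold (log2 5.03 ± 0.35 SE, adjusted p = 0.000515, limma), and the wild-type difference was 4.03 on the log2 scale (adjusted p = 0.00637, limma). Neither Socs3 probe set lay above the array median on any hippocampal array, so both were tested because of the CA1 arrays in which they were high. The other probe set rose less, with a difference of 2.88 in induced and 1.81 in wild-type mice, and passed in both (limma adjusted p = 0.00326 and 0.04).

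Immediate early genes had the highest median difference of the lists over the 5 compared arrays. Another list was higher without the second CA1 VC array or the first 2-week array. The same held against the 2-week, the 5-week or the 1-week arrays alone. Of 44 listed genes 28 were tested, 9 rose in induced CA1 and none fell, beside 1.94% of all probe sets that rose. Their median difference was 0.84 against -0.115 over all tested probe sets, and 24 of 28 were positive. In wild-type mice 3 of 28 rose (1.23% of all probe sets), none fell and the median was 0.71. Each gene was represented by its brightest probe set. Of the 9 that rose in induced CA1, Ccn1 met the filter through CA1 arrays alone and is no support for the list.

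Zfp36 encodes a protein that speeds the decay of cytokine mRNAs. It read 11.33 and 12.85 on the CA1 VC arrays, against 8.32 and 9.07 at 2 weeks and 9.17 at 5 weeks in hippocampus. Wild-type CA1 read 11.05, against 6.97 and 9.15 in wild-type hippocampus. In both genotypes CA1 lay above hippocampus with no overlap, by 3.23 ± 0.68 in induced mice (adjusted p = 0.0283, limma) and by 2.99 ± 0.91 in wild-type mice (adjusted p = 0.0911, limma), which did not pass.

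Fosb read 12.38 and 14.09 on the CA1 VC arrays, against 10.88 and 10.72 at 2 weeks and 11.05 at 5 weeks in hippocampus. It read 13.16 in wild-type CA1, against 10.48 and 10.58 in wild-type hippocampus. The wild-type CA1 level thus lay between the CA1 VC levels, and the difference passed in induced (2.35 ± 0.41, adjusted p = 0.0165) and in wild-type mice (2.63 ± 0.55, adjusted p = 0.0338, limma). Jun, its AP-1 partner, read 11.27 and 11.70 in CA1 VC, against 9.63, 9.70 and 10.12 in late hippocampus, and differed by 1.66 ± 0.22 (adjusted p = 0.00873, limma). Both CA1 VC arrays lay above the 3 late hippocampal arrays, and in wild-type mice Jun differed by 0.97 and did not pass (adjusted p = 0.0937, limma).

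The other immediate early genes that rose were Atf3 (1.65), a stress-induced factor of the CREB and ATF family, Ccn1 (1.75), a secreted matrix protein, Ier3 (1.84), a regulator of survival, Junb (1.05, and 2.07 on another probe set), Gadd45b (0.91) and Gadd45g (0.93), both growth arrest and DNA damage genes. Atf3 was higher in wild-type CA1 too, by 1.95, so its rise was not particular to induced mice. Fos differed by 1.36 and missed the threshold in induced mice (adjusted p = 0.0762), while in wild-type mice it rose by 2.43 (adjusted p = 0.0428, limma). Fos read 12.54 and 13.64 on the CA1 VC arrays and 11.26, 11.49 and 12.46 in late hippocampus, the last at 5 weeks. It read 12.57 in wild-type CA1, against 9.91 and 10.38 in wild-type hippocampus, so that the late hippocampal levels lay above those of wild-type hippocampus. Bdnf, a neurotrophin and CREB target, differed by 0.53 in induced mice and 0.59 in wild-type mice and did not pass in either (adjusted p = 0.0914 and 0.154, limma).

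The immediate early genes differed between the CA1 VC arrays. Of the 28 genes, 24 read higher on the second array than on the first, by a median of 0.92. Without the second array 4 of 28 rose, with a median of 0.35. Without the first 13 rose and 2 fell, with a median of 1.32. Against the 5-week array alone none passed and the median was 0.43, and without the first or the second 2-week array 2 rose in each case.

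Among the genes of cytokine feedback and the acute response, 3 of the 16 tested rose (20 were listed) and none fell, beside 1.94% of all probe sets that rose. These were Socs3, Ccl2 and Nfkbia, and Socs3 and Ccl2 met the filter through CA1 arrays alone, so that the count is no support for the list. The median was 0.57 in induced and 0.18 in wild-type mice, and 0.13 in induced mice with the deposited scale as a block and 0.12 against the 5-week array. Ccl2, a chemokine that attracts monocytes, read 8.78 and 9.75 on the CA1 VC arrays, against 6.04, 6.04 and 7.11 in late hippocampus, the last at 5 weeks. It was at least 7.31-fold higher in induced CA1 (adjusted p = 0.00814, limma), entering the test through the CA1 VC arrays alone, while in wild-type mice it read 6.72 in CA1 and 6.04 in both hippocampi (difference 0.68, adjusted p = 0.409, limma). The difference between genotypes had an unadjusted p of 0.0072 and an adjusted p of 0.669 for Ccl2. Nfkbia, the inhibitor that NF-kB induces against itself, rose by 1.79 in induced CA1 (adjusted p = 0.0186, limma). Another Nfkbia probe set differed by 1.11 in induced mice without passing (adjusted p = 0.069, limma) and by 0.78 in wild-type mice. The rest of the list had differences between -0.45 for Lcn2 and 0.89 for Serpina3n, both without passing.

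The cytokines themselves were outside these lists and were named for the size of their rise. Il1a, interleukin 1 alpha, read 9.33 and 12.97 on the CA1 VC arrays, against 6.08 and 6.72 at 2 weeks and 7.55 at 5 weeks in hippocampus. Tnf, tumour necrosis factor, read 9.10 and 11.56 in CA1 VC, against 6.20, 6.04 and 6.17 in late hippocampus. The second CA1 VC array was the higher for both genes, and neither gene overlapped between the groups. Il1a differed by 4.37 ± 0.90 (adjusted p = 0.0262) and Tnf by at least 18.3-fold (4.20 ± 0.61, adjusted p = 0.01, limma), and both entered the test through CA1 arrays alone. In wild-type mice Il1a read 8.59 in CA1, against 6.92 and 7.06 in hippocampus, and Tnf read 7.61, against 6.51 and 7.53, and neither passed. Microglia and macrophages are known sources of both cytokines, and the levels of their markers, given next, were also higher in induced CA1. Their part in these rises was not tested.

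**Figure D2:**
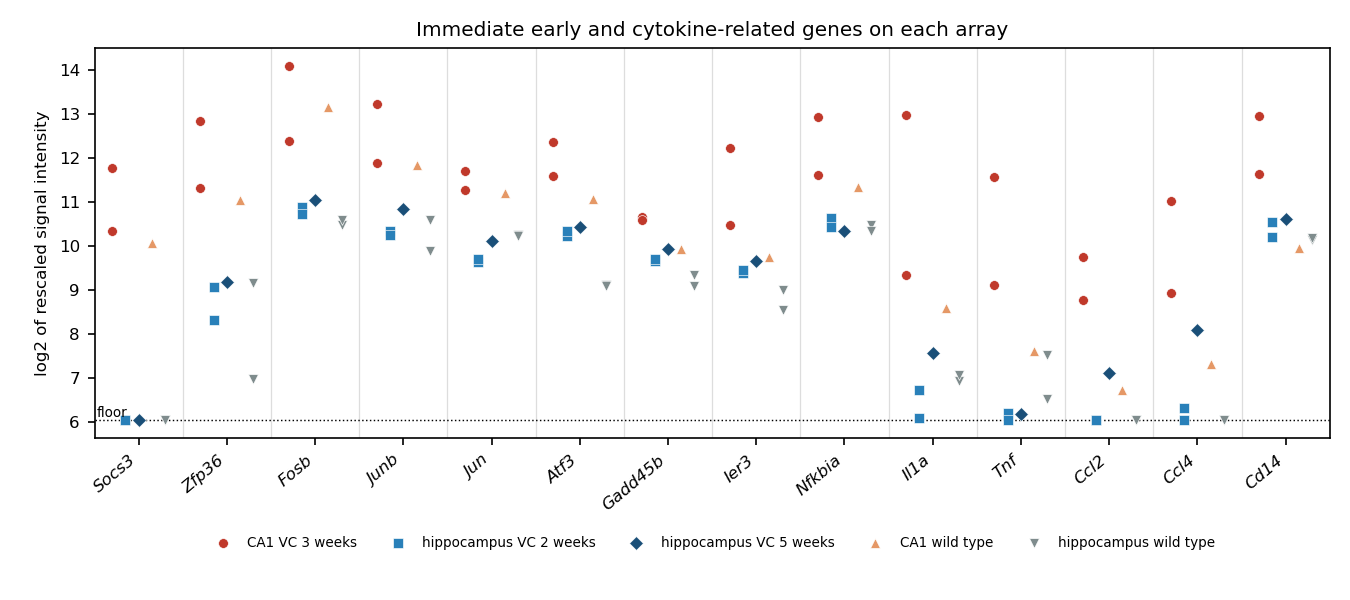
The log2 rescaled signal of 14 immediate early and cytokine-related genes is plotted on each array, with CA1 VC 3 weeks (circles), hippocampus VC 2 weeks (squares) and 5 weeks (diamonds), CA1 wild type (upward triangles) and hippocampus wild type (downward triangles), and the dotted line marks the floor at 6.04. Each gene is shown by its probe set with the smallest p, and Socs3 is at the floor on the late hippocampal arrays. Both circles lie above the squares and the diamond for all 14. That order follows from the choice of genes, since all 14 were higher calls and no call had overlapping groups.

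Of 33 listed microglia and macrophage genes 26 were tested, and 7 rose in induced CA1 and none fell, beside 1.94% of all probe sets that rose. The differences were positive for 24 of the 26, with a median of 0.78. In wild-type mice none of the 26 rose and 1 fell, beside 4.19% of all probe sets that fell, with a median of 0.30. The median level of the list was 10.78 and 11.25 on the CA1 VC arrays, against 9.56 and 10.04 at 2 weeks and 10.65 at 5 weeks in hippocampus. It was 8.77 in wild-type CA1, against 9.10 and 9.26 in wild-type hippocampus. By this level the list was higher on both CA1 VC arrays than on each late hippocampal array. In wild-type mice the median level was lower in CA1, while the median of the gene by gene differences was positive, so that these summaries differ in sign. In bulk tissue more cells of a type and more RNA per cell cannot be told apart.

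The difference depended on the time of the hippocampal sample. Against the 2-week arrays 14 of 26 rose, 24 were positive and the median was 1.18. Against the 5-week array none passed, 15 were positive and the median was 0.05. None of the 26 passed without the first or without the second 2-week array, and with the 5 compared arrays alone none passed either.

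Cd14, a receptor for bacterial lipopolysaccharide on myeloid cells, read 11.64 and 12.95 on the CA1 VC arrays, against 10.54 and 10.20 at 2 weeks and 10.60 at 5 weeks in hippocampus. Both CA1 VC arrays were the higher (1.85 ± 0.34, adjusted p = 0.0173, limma). Wild-type CA1 read 9.95, against 10.13 and 10.17 in wild-type hippocampus, a difference of -0.20. For Cd14 the difference between genotypes had an unadjusted p of 0.00575 and an adjusted p of 0.641.

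Cd52, a small surface glycoprotein of leukocytes, read 11.26 on both CA1 VC arrays, against 9.44, 9.85 and 10.52 in late hippocampus. It read 7.02 in wild-type CA1, against 8.21 and 7.98 in wild-type hippocampus. The regional difference was 1.32 in induced mice (adjusted p = 0.029, limma) and -1.07 in wild-type mice (adjusted p = 0.124, limma), with an unadjusted p of 0.000754 and an adjusted p of 0.265 for the difference between them. Ly86 (1.72), Mpeg1 (1.75), Csf1r (0.84), C1qc (1.07) and Ccl4 (3.15) were the other members that rose, and of the 7 Ccl4 met the filter through the CA1 VC arrays alone. Csf1r encodes the receptor that microglia need to survive, C1qc a chain of complement C1q, and Mpeg1 a pore-forming protein of macrophages.

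Genes of antigen presentation by MHC class II did not follow the same order of samples. Cd74, the invariant chain, read 10.78 and 11.24 in CA1 VC, against 9.56 and 9.82 at 2 weeks and 11.93 at 5 weeks in hippocampus. The 5-week array was the highest of these 5, and the difference of 0.57 did not pass (adjusted p = 0.564, limma). Cst7, a cystatin that reactive microglia express, was alike in order, with 10.79 and 10.96 in CA1 VC, against 8.94, 10.44 and 11.49 in late hippocampus (0.59, adjusted p = 0.542, limma). Among the genes of MHC class I and of antigen processing none of 12 tested passed, with a median of 0.39, and among the interferon response genes none of 12 passed, with a median of 0.21. Against the 5-week array alone these medians were -0.14 and -0.51. The H2-K1 probe sets disagreed, since one was lower in induced CA1 (-1.38, adjusted p = 0.00893, limma) and the others differed by 0.58 and -0.13 and did not pass.

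**Figure D3:**
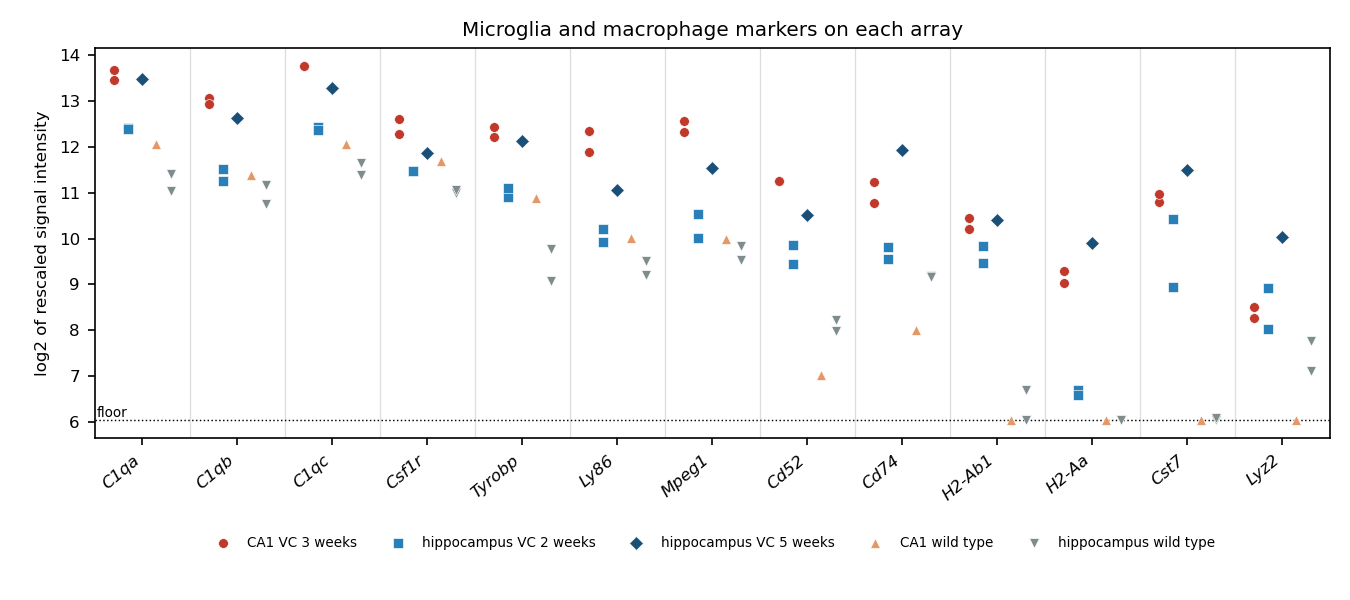
The log2 rescaled signal of 13 microglia and macrophage genes is plotted on each array, with the symbols of the groups given in the legend and the floor at 6.04. The circles of CA1 VC lie above both squares of hippocampus VC 2 weeks except for Lyz2, and the 5-week diamond lies between or above the circles for C1qa, Cd74, H2-Ab1, H2-Aa, Cst7 and Lyz2.

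Markers of the hippocampal subfields were weighed to see how far the CA1 label was borne out. Of 23 listed CA1 pyramidal genes 10 were tested, 1 rose and none fell, beside 1.94% of all probe sets that rose, and their median was -0.17 in induced and -0.04 in wild-type mice. This median turned to 0.21 without the first CA1 VC array and was -0.29 without the second, with 8 of the 10 genes higher on the second array. The gene that rose was Zbtb20, a zinc finger repressor needed for the fate of CA1 pyramidal cells. It read 10.14 and 10.63 on the CA1 VC arrays, against 8.56 and 7.49 at 2 weeks and 8.83 at 5 weeks in hippocampus. Wild-type CA1 read 10.68, against 8.97 and 8.05 in wild-type hippocampus, so the 3 CA1 arrays lay together above both groups. The Zbtb20 difference was 2.09 ± 0.42 in induced mice (adjusted p = 0.0231, limma) and 2.17 ± 0.56 in wild-type mice (adjusted p = 0.0589, limma), but 0.80 against the 1-week hippocampal arrays (adjusted p = 0.23).

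Wfs1, a membrane protein of the endoplasmic reticulum that marks dorsal CA1, read 11.44 and 12.03 in CA1 VC, against 10.90, 11.18 and 11.03 in late hippocampus. The groups did not overlap, but the difference of 0.69 missed the threshold (adjusted p = 0.0669, limma). The first CA1 VC array lay below the hippocampal arrays outside the late group, on which Wfs1 read 11.46 to 11.63. Wild-type CA1 read 11.95, against 11.48 and 11.53 in wild-type hippocampus. Pou3f1, a POU domain factor, differed by 0.70 (adjusted p = 0.116, limma). Man1a (0.22), Neurod6 (-0.03), Crym (-0.30), Ccn3 (-0.35), Doc2b (-0.47), Galnt3 (-0.56) and Nptx1 (-0.59) made up the rest, and none of them passed. Whole hippocampus contains CA1 as well.

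Dentate granule cell markers passed in neither direction among the 9 tested of 22 listed, beside 6.54% of all probe sets that fell. Their median was -0.27 in induced and -0.37 in wild-type mice, and 7 of 9 were negative in both, but the induced median was 0.13 after quantile normalization. Dsp, a desmosomal protein of granule cells, read 8.31 and 9.59 in CA1 VC, against 10.62 and 10.30 at 2 weeks and 9.55 at 5 weeks in hippocampus. The second CA1 VC array overlapped with the 5-week array, and the difference was -1.21 (adjusted p = 0.0941, limma). Neurod1, a differentiation factor of granule neurons, differed by -0.73 (adjusted p = 0.0714, limma), and Calb1, the calbindin that granule cells and part of CA1 share, by -0.27 (adjusted p = 0.44, limma). Prox1, which defines granule cells, lay under the filter on low values, with 6.04 and 6.19 in CA1 VC, against 6.73, 6.76 and 6.60 in late hippocampus.

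Of the CA3, CA2 and mossy cell genes 9 of 26 were tested, 1 fell and none rose, which is near the 6.54% of all probe sets that fell, and the median was -0.35 in induced and -0.94 in wild-type mice. Calb2, calretinin of mossy cells and of some interneurons, read 10.08 and 9.91 on the CA1 VC arrays, against 10.95, 11.46 and 11.29 in late hippocampus. Wild-type CA1 read 9.98, against 11.31 and 11.07 in wild-type hippocampus. The groups were apart in both genotypes, by -1.24 ± 0.19 in induced (adjusted p = 0.0121) and -1.21 ± 0.26 in wild-type mice (adjusted p = 0.0363, limma). Among the interneuron genes 1 of 14 fell, the peptide Cck (-0.75, adjusted p = 0.0373, limma). Sst (-0.14), Npy (0.46) and Pvalb (0.41) did not pass, and Gad1, which makes GABA, differed by -0.83 (adjusted p = 0.055).

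Some genes of tissue that borders the hippocampus were lower in CA1. Of 11 tested markers of other forebrain regions 4 fell and none rose, beside 6.54% of all probe sets that fell, with a median of -0.83 in induced and -0.56 in wild-type mice. These were Tcf7l2 (-1.32), a Wnt pathway factor of thalamic neurons, Ramp3 (-0.83), a partner protein of peptide receptors, Zic1 (-0.89), a factor of septum and thalamus, and Calb2 again. Tcf7l2 read 8.84 and 9.23 in CA1 VC, against 10.26, 10.63 and 10.16 in late hippocampus, and 9.46 in wild-type CA1, against 10.10 and 10.13 in wild-type hippocampus. CA1 was the lower in both genotypes, and the wild-type difference of Tcf7l2 did not pass (-0.66, adjusted p = 0.259, limma). Without the second 2-week array none of the 11 passed, without the first 1 did, and after quantile normalization 2 did. Differences were positive for 3 of the 11 in induced and for 5 in wild-type mice. The wild-type median was -0.11 after quantile normalization.

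Of 13 tested genes of meninges and fibroblasts 4 fell and none rose, beside 6.54% of all probe sets that fell, with a median of -0.71 in induced and -0.55 in wild-type mice. Lum (-1.25) and Col1a1 (-0.89), a matrix proteoglycan and a collagen chain, were lower along with Col6a1 (-1.03) and Islr (-0.66). Col1a1 read 9.22 and 9.03 in CA1 VC, against 9.97, 10.16 and 9.91 in late hippocampus, and 8.86 in wild-type CA1, against 10.23 and 10.02 in wild-type hippocampus. It passed in both genotypes (adjusted p = 0.04 in each, limma). After quantile normalization 1 of the 13 fell, and without the second 2-week array none did.

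Among 6 tested choroid plexus genes Ttr fell and none rose, beside 6.54% of all probe sets that fell, with a median of -0.81 in induced and -1.14 in wild-type mice. The Ttr probe set met the filter through hippocampal arrays alone. Ttr, the thyroid hormone carrier that choroid plexus secretes, read 6.32 and 7.93 on the CA1 VC arrays. It read 8.64 and 12.15 at 2 weeks and 12.58 at 5 weeks in hippocampus, and 7.20 in wild-type CA1, against 11.35 and 11.48 in wild-type hippocampus. The first 2-week array was low among the hippocampal arrays and still lay above both CA1 VC arrays. The difference of -4.00 ± 1.02 passed narrowly (adjusted p = 0.0484, limma) and reached -5.24 without that array (adjusted p = 0.0059), while it missed the threshold without the second 2-week array, the 5-week array or the first CA1 VC array (adjusted p = 0.149, 0.0916 and 0.191) and after quantile normalization (-3.70, adjusted p = 0.0785). Kl, the ageing regulator klotho of choroid plexus, differed by -1.29 (adjusted p = 0.06) and Folr1, a folate receptor, by -1.23 (adjusted p = 0.12, limma).

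**Figure D4:**
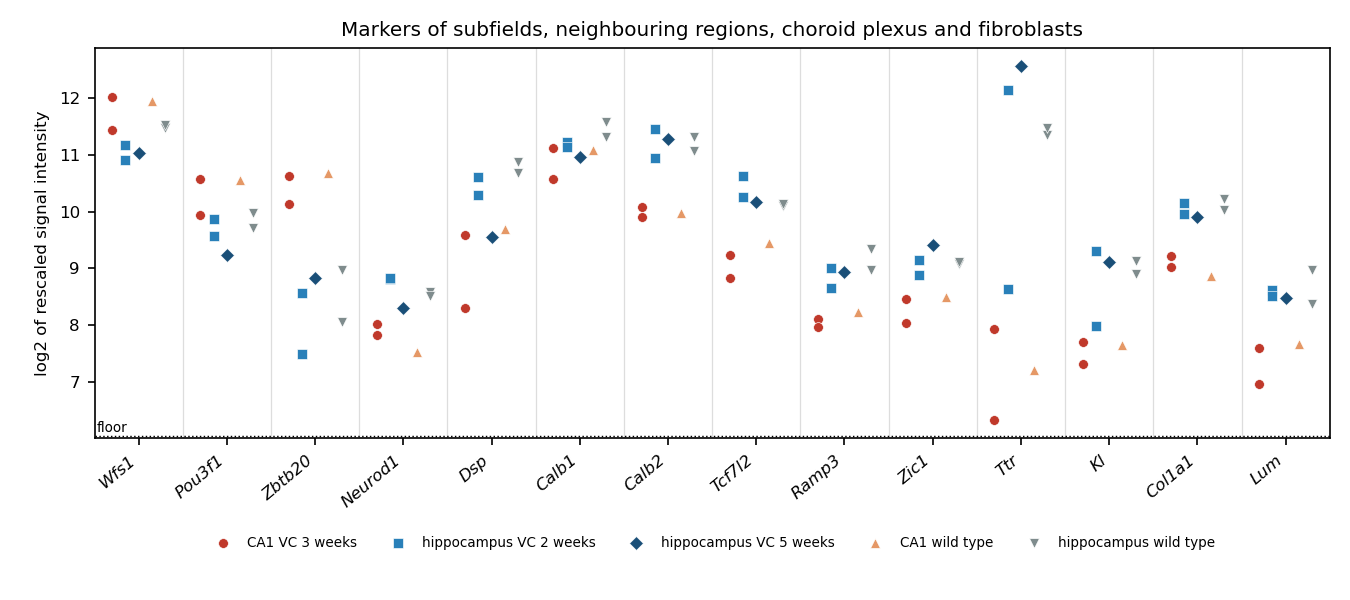
The log2 rescaled signal of 14 markers is plotted on each array, from CA1 (Wfs1, Pou3f1, Zbtb20) and dentate gyrus (Neurod1, Dsp, Calb1) to other regions (Calb2, Tcf7l2, Ramp3, Zic1), choroid plexus (Ttr, Kl) and fibroblasts (Col1a1, Lum), with the groups as in the legend. Circles of CA1 VC and the upward triangle of wild-type CA1 lie above the hippocampal symbols for Zbtb20 and below them for Calb2, Tcf7l2 and Ttr.

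Astrocyte genes moved in both directions, with 2 of 20 higher and 2 lower, beside 1.94% and 6.54% of all probe sets, and a median of -0.23 in induced mice. Aqp4, the water channel of astrocyte endfeet, read 12.25 and 11.08 in CA1 VC, against 9.14, 9.18 and 10.10 in late hippocampus, and 10.77 in wild-type CA1, against 9.50 and 9.14 in wild-type hippocampus. CA1 was the higher in both genotypes, by 2.19 ± 0.39 in induced (adjusted p = 0.0165) and 1.45 ± 0.52 in wild-type mice (adjusted p = 0.129, limma), and another Aqp4 probe set rose by 1.77. Slc4a4, a bicarbonate transporter, rose by 1.13 (adjusted p = 0.0456, limma). Apoe, the lipid carrier, fell by 1.66 (adjusted p = 0.0152) and the metallothionein Mt2 by 0.94 (adjusted p = 0.0413, limma). Gfap, the intermediate filament of astrocytes, read 14.09 and 13.52 in CA1 VC, against 13.75, 13.56 and 14.35 in late hippocampus, and did not pass (-0.08, adjusted p = 0.873, limma).

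Oligodendrocyte genes passed in neither direction (14 tested, median 0.12 in induced and -0.28 in wild-type mice). Of 17 endothelial and pericyte genes 1 rose, Cldn5, the claudin of blood vessel tight junctions (1.29 ± 0.30, adjusted p = 0.0386, limma). The median of these 17 was 0.27 in induced and 0.52 in wild-type mice, where Cldn5 passed too (1.72, adjusted p = 0.0459, limma). Of 12 genes of neurogenic and immature cells 1 fell, Calb2, and Dcx, the doublecortin of immature neurons, differed by -0.64 (adjusted p = 0.05, limma).

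Receptors, channels and release genes of neurons showed scattered differences, to be read against the 6.54% of all probe sets that fell and the 1.94% that rose. Of 9 glutamate receptor genes 2 fell and none rose, with a median of 0.24. Both that fell met the filter through hippocampal arrays alone. Grin2d, an NMDA receptor subunit, was at the floor of 6.04 on both CA1 VC arrays, against 9.08, 8.90 and 8.03 in late hippocampus, and read 6.45 in wild-type CA1, against 8.05 and 8.97 in wild-type hippocampus. CA1 was the lower on each array, by at least 6.21-fold in induced mice (adjusted p = 0.0107), and by 2.06 on the log2 scale in wild-type mice without passing (adjusted p = 0.0564, limma). The metabotropic receptor Grm8 was at least 3.36-fold lower (adjusted p = 0.0173, limma). The AMPA receptor subunits Gria1 (0.63), Gria2 (0.40) and Gria3 (0.94) were positive and did not pass. On other probe sets Gria1 differed by -0.04 and Gria2 by -0.04 and 0.03, also without passing.

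Of 11 potassium channel genes 1 rose and 2 fell. Kcnk1, a two-pore leak channel, read 11.04 and 10.78 in CA1 VC, against 12.18, 12.87 and 12.59 in late hippocampus, and 10.94 in wild-type CA1, against 12.80 and 12.69 in wild-type hippocampus. It was lower in both genotypes, by -1.64 ± 0.22 in induced (adjusted p = 0.0084) and -1.80 ± 0.29 in wild-type mice (adjusted p = 0.0172, limma). Kcnd2, an A-type channel, fell by 1.01 (adjusted p = 0.0453, limma). Kcna1, a delayed rectifier, rose by 2.17 against late hippocampus (adjusted p = 0.0453), but differed by -0.054 from the 1-week hippocampal arrays and by 0.04 from hippocampus wild type 1 (limma).

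The monoamine, acetylcholine and peptide receptors had a median of -0.64 in induced and -0.63 in wild-type mice, with 2 of 13 lower and none higher. The serotonin receptor Htr7 read 8.37 and 7.63 in CA1 VC, against 9.07, 9.14 and 9.03 in late hippocampus. It read 6.42 in wild-type CA1, against 9.19 and 9.36 in wild-type hippocampus, and fell by 1.08 in induced (adjusted p = 0.029) and by 2.86 in wild-type mice (adjusted p = 0.0056, limma). The somatostatin receptor Sstr2 fell by 0.77 (adjusted p = 0.0465, limma), while its other probe sets differed by -0.60 and 0.10 and did not pass. Among the 23 synaptic vesicle genes none passed (median -0.39), and of 3 GABA receptor genes none passed, with a median of 0.82. It turned to -0.08 when deposited scale was fitted as a block, which rests on the wild-type hippocampal pair of arrays.

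The remaining lists held few calls, and their counts are near the 6.54% of all probe sets that fell or rest on single genes. Of 22 calcium genes 2 fell, Calb2 and the calcium sensor Hpca of pyramidal cells (-1.02, adjusted p = 0.0465, limma). Of 20 postsynaptic and kinase genes 1 fell, Ywhaz, a 14-3-3 adaptor protein, which read 12.62 and 12.13 in CA1 VC, against 14.39, 14.41 and 14.18 in late hippocampus. Ywhaz was lower in both genotypes, by -1.95 ± 0.20 in induced and -2.34 ± 0.27 in wild-type mice (adjusted p = 0.00326 and 0.00637, limma). Of 28 adhesion and guidance genes 2 fell, the semaphorin Sema3e (-2.33) and Plxna3 (-1.08), a plexin of the semaphorin receptors. Of 14 growth factor genes 1 fell, Igf1 (-1.45, adjusted p = 0.0168, limma), and of 22 heat shock and endoplasmic reticulum genes 1 fell, the chaperone Canx (-0.92). Another Canx probe set differed by 0.24 and did not pass. Of 8 genes of the CREB family and its cofactors Atf4 rose (0.74, adjusted p = 0.0269, limma).

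Genes of the respiratory chain and the ribosome served as broadly expressed classes. Of 49 oxidative phosphorylation genes 1 rose and 3 fell, shares near the 1.94% and 6.54% of all probe sets, with a median of 0.00 (-0.07 after quantile normalization) in induced and 0.05 in wild-type mice. Atp5e, a small ATP synthase subunit, rose by 1.20, and the subunits Atp5pb (-1.33), Cox6b1 (-0.86) and Ndufa10 (-0.82) fell. Of 24 cytosolic ribosomal protein genes 1 fell and none rose, with a median of -0.02 (0.07 after quantile normalization). It was a probe set of Rpl41 that detects related sequences, with 12.59 and 9.36 in CA1 VC, against 15.95, 15.54 and 15.45 in late hippocampus. The CA1 VC arrays were far apart from each other, and the difference of -4.67 ± 0.75 (adjusted p = 0.0127, limma) stood at -1.77 in wild-type mice (adjusted p = 0.291).

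**Figure D5:**
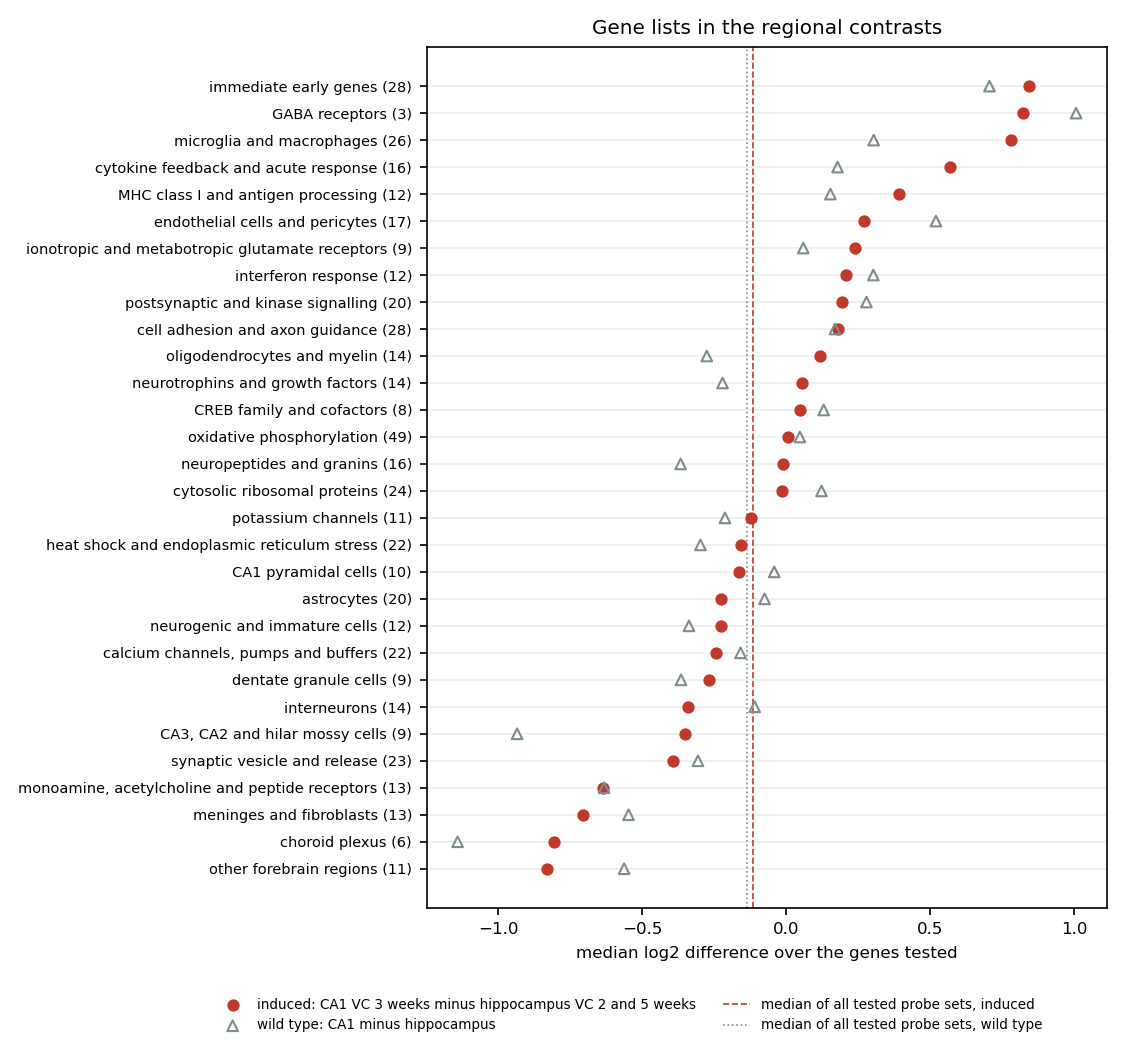
The median log2 difference of each gene list is plotted for induced mice (CA1 VC 3 weeks minus hippocampus VC 2 and 5 weeks, filled circles) and for wild-type mice (CA1 minus hippocampus, open triangles), with the number of genes tested in brackets and the medians of all tested probe sets as vertical lines. Immediate early genes have the highest induced median (0.84) and markers of other forebrain regions the lowest (-0.83), and for most lists the circle and the triangle lie on the same side of zero.

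The prodynorphin gene Pdyn, which encodes the dynorphin opioid peptides and is a CREB target, gave unlike values on its 2 probe sets. On the first Pdyn read 9.63 and 9.61 in CA1 VC, against 10.87, 10.68 and 10.52 in late hippocampus, and 6.30 in wild-type CA1, against 9.56 and 9.51 in wild-type hippocampus. CA1 was the lower in both genotypes, by -1.07 ± 0.17 in induced (adjusted p = 0.0121) and -3.24 ± 0.23 in wild-type mice (adjusted p = 0.00173, limma). On the other it differed by -0.01 in induced and 1.48 in wild-type mice and passed in neither (adjusted p = 0.992 and 0.0512, limma). Creb1, the gene of the factor that the transgene carries, differed by -0.10 and -0.67 on its 2 probe sets between induced CA1 and late hippocampus (adjusted p = 0.829 and 0.345, limma), so that no regional difference in its signal was called. Of 16 neuropeptide and granin genes 2 fell, Pdyn and Cck, with a median of -0.01 (0.07 after quantile normalization).

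Genes outside the lists with the largest differences completed the picture. Mep1b, a meprin subunit, read 9.90 and 9.69 in CA1 VC, against 6.65, 6.53 and 6.21 in late hippocampus, and 9.47 in wild-type CA1, against 6.80 and 6.46 in wild-type hippocampus. It was higher on all 3 CA1 arrays and rose by 3.33 in induced and 2.84 in wild-type mice (adjusted p = 0.000423 and 0.00315, limma). Nap1l4, a histone chaperone, was at least 7.22-fold higher, Hipk2, a nuclear kinase, 7.12-fold and Myo1c, an unconventional myosin, at least 4.91-fold. Dnajb13 (2.42), B3gnt2 (2.13), S100a13 (2.06) and a probe set of the enkephalin gene Penk (2.17) rose as well, while the brighter Penk probe set differed by 0.01.

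Among the genes that fell most, Spdl1, a spindle adaptor, was at least 6.51-fold lower in induced CA1, with 6.04 and 6.35 in CA1 VC, against 8.85, 8.85 and 8.98 in late hippocampus. It read 7.23 in wild-type CA1, against 8.59 and 8.74 in wild-type hippocampus (-1.44, adjusted p = 0.0172, limma). Tmbim1 (-2.77), Zfp277 (-2.60), Dmtf1 (-2.50), Prss30 (-2.49), Fstl3 (-2.43) and Pitpnb (-2.41) passed in both genotypes. Dut (-2.24), Plk1 (-2.11), Prss32 (-2.20) and Cx3cl1 (-2.10) passed in induced mice, and in wild-type mice they had differences of -0.67, -0.72, -0.80 and 0.32 that did not pass. The far brighter Cx3cl1 probe set differed by 0.04 in induced mice and did not pass. Of these genes, Mep1b, Nap1l4, Dnajb13, S100a13, Penk, Tmbim1, Zfp277, Plk1 and Cx3cl1 were called on probe sets whose names end in _i_at, _r_at or _f_at, which the array's naming gives to incomplete or shared probes. The same limit holds for Atf3, Tcf7l2, Kcnd2, Atp5e, Cox6b1, Rpl41, both Junb probe sets and a probe set each of Socs3 and Gadd45b. It also holds for Eif2s3y, given below. Other probe sets of Nap1l4 (0.36), Tmbim1 (0.80), Zfp277 (0.68), Plk1 (-0.21), Dnajb13 (-0.26) and B3gnt2 (-1.15) did not pass, and those of Tmbim1, Zfp277, Dnajb13 and B3gnt2 had the opposite sign.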

How the data were processed

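The 12 samples were measured on Affymetrix MG-U74Av2 arrays. The authors deposited linear intensity values per probe set, made with GCOS per the submitters' processing notes. The sources used here give neither its version nor its algorithm or scaling. Per the labels' protocols, polyA RNA of pooled tissue was labelled with biotin. Samples were grouped by title. Deposited values were scaled per array to a mean of 1000 with 2% of values trimmed at each end, floored at the 20th percentile and log2 transformed, and 66 control probe sets were left out. Symbols came from the platform annotation, which gave 10833 probe sets 1 symbol, 396 several and 1193 none.

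Limma 3.58.1 in R 4.3.3 (lmFit, eBayes) fitted all 12 arrays as 7 levels with 5 residual degrees of freedom, two-sided. The late level joins 2 and 5 weeks, so their difference counts as spread, and the lone wild-type CA1 array was assumed to vary like the others. Folds against a group with an array at the floor are given as lower bounds. Log2 differences are printed without that mark, and those of Dnajb13, Zfp277 and Fstl3, among others, are lower bounds in size too. The fit was tested on simulated data. The number of arrays limits the precision.

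The members, the 31 gene lists and the tests were chosen with earlier results of these data known. Lists are described by counts and medians over the brightest probe set per gene, without a set test. Named genes were the 20 largest differences in each direction past the threshold with 1 symbol and no overlap, all tested subfield markers, other list members that passed, and a preset list of genes of interest. Differences of Il1a, Tnf and other genes outside the lists were named by size. Promoter windows came from RefSeq. Alternatives covered quantile normalization, floors, filters, an empirical Bayes trend, the deposited scale, single arrays left out, single time points and the wild-type array used.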

Additional observations from a re-analysis of the deposited data

How the results depend on the processing

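Beside 599 calls in the induced comparison, quantile normalization gave 292, the deposited scale as a block 0, the 5 compared arrays alone 95, the 5-week array alone 10, and CA1 VC against hippocampus wild type 1, chosen after seeing the data, 78. Leaving out 1 array gave 63 to 1076. In wild-type mice, beside 383, the counts were 93 after quantile normalization, 583 without a filter, 32 with the scale block or hippocampus wild type 1 alone, 41 with hippocampus wild type 2 alone and 818 with the on-dox array added, and leaving out 1 array gave 32 to 41. The difference between genotypes passed for 156 probe sets without a filter and for 0 to 22 with 1 array left out. The other floors, the mean filter, limma's trend and robust settings, the 2-week and the 1-week arrays kept the induced count within 1.5 times. Of 31 lists, 17 had an induced median above that of all probe sets, 16 with the median probe set per gene and 17 after quantile normalization.

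Of the 95 calls picked by the rules for naming genes, 69 passed after quantile normalization, 40 without a filter and 28 to 75 with 1 late hippocampal array left out. Signs turned for Kcna1 against the 1-week arrays (-0.054), for the Pdyn probe sets against hippocampus wild type 1 (0.054 and 4.91) and the second also against 1 week (1.63), for an H2-K1 probe set against 1 week (1.34) and hippocampus wild type 1 (2.18), for a Creb1 probe set against hippocampus wild type 1 (3.17) and for a Gfap probe set against 1 week (1.76). These settings compare induced with uninduced or earlier tissue, and otherwise the cause was not tested. Deviations of same-numbered arrays from their group means correlated with either sign, at -0.23 to 0.20, and at 0.20 between CA1 VC and hippocampus 2 weeks. The replicate block on the 8 numbered arrays of the 4 numbered groups gave 347 calls, against 553 on these arrays without it.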

Other observations

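Of 3 Y-linked genes, Eif2s3y and Uty read lower on all 3 CA1 arrays than on all 9 hippocampal arrays, while Kdm5d did not. Xist read higher in CA1 than in the compared hippocampal group in both genotypes. The sources used here do not give the sexes in the pools. The Y-linked Eif2s3y read 7.07 and 6.20 in CA1 VC, against 9.23, 9.02 and 8.87 in late hippocampus, and 6.49 in wild-type CA1, against 9.05 and 9.10 in wild-type hippocampus. It fell by 2.40 in induced and by 2.58 in wild-type mice (adjusted p = 0.0103 and 0.0226, limma). Uty, which is also Y-linked and lay under the filter, was at the floor of 6.04 on all 3 CA1 arrays and read 6.11 to 7.70 on the 9 hippocampal arrays. Kdm5d, Y-linked too and under the filter, read 6.80 on the first CA1 VC array and 6.04 on the second, and was at the floor on the other 10 arrays, so of these 3 Eif2s3y alone was tested. Xist, which is expressed from the inactive X chromosome, read 9.36 and 9.56 in CA1 VC, against 6.11, 8.85 and 9.28 in late hippocampus, with the first 2-week array far below the others. It read 10.96 in wild-type CA1, above both wild-type hippocampal arrays, of which the first read 9.48. Whether the share of male and female mice differed between the pools was not tested.

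Several probe sets had a much larger regional difference in wild-type than in induced mice. Cyb561, a cytochrome of secretory vesicles, read 9.29 and 9.11 in CA1 VC, against 10.10, 10.34 and 9.88 in late hippocampus, and 7.16 in wild-type CA1, against 10.14 and 10.36 in wild-type hippocampus. Its difference was -0.91 in induced and -3.09 in wild-type mice (unadjusted p for the difference 0.000205, adjusted p = 0.204, limma). Rapsn, the rapsyn of cholinergic synapses, had -0.42 and -2.62, and Gsta2, a glutathione transferase, -0.82 and -3.02, with adjusted p = 0.204 and 0.225 for the difference (limma). In each of these genes the wild-type CA1 array, which has no replicate, was the lowest of all 12 arrays.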
